A study of Homo sapiens with 6 samples.

Results

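The miR-221 and miR-222 cluster was examined through its 4 mature arms, hsa-miR-221-3p, hsa-miR-221-5p, hsa-miR-222-3p and hsa-miR-222-5p, taken by name from a table of 1000 mature miRNAs. The cells were HEK 293T, a transformed human embryonic kidney line, sequenced as 3 biological replicates of untreated wild type cells (WT) and 3 of the TENT3A/B double knockout. TENT3A and TENT3B are TUT4 and TUT7, the terminal uridylyltransferases that add uridines to the 3′ ends of RNAs, and the knockout is called ΔTUT4/7 here. The knockout is 1 strain made in another laboratory, so any other difference between the strains is part of each fold change. Since mature miRNAs say nothing of the messenger RNAs of TUT4 and TUT7, the strain labels were not checked against the deleted genes.

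A miRNA hairpin is cut by DROSHA and then DICER into a duplex of a 5p and a 3p arm, of which 1 usually enters an Argonaute protein as the guide while its partner, the passenger, is mostly degraded. In miR-221 and miR-222 the 3p arm is the usual guide. Both 3p arms are known to repress the cell cycle inhibitors p27 (CDKN1B) and p57 (CDKN1C), and they are abundant in many dividing cells. The hairpins are not on the study's list of group II miRNAs, whose precursors need a nucleotide added to the 3′ end before DICER cuts them. The question for the cluster was whether its arms changed in level, or in proportion to each other, when TUT4 and TUT7 were absent.

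The sequences are shown because the pairs of arms differ in how much they share. The RefSeq table (GRCh38.p14) held the mature sequence of 3 of the 4 members, printed 5′ to 3′ with the seed, bases 2 to 8, in capitals.
hsa-miR-221-3p: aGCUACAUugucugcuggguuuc
hsa-miR-222-3p: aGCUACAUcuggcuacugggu
hsa-miR-222-5p: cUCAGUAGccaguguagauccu
The entry for hsa-miR-221-5p is named only. The 3p arms began with the same 8 bases and so had the same seed, GCUACAU, which no other mature entry among the 2370 names of the table carried. The seed of miR-222-5p, UCAGUAG, was carried by no other entry. The counts rest on reads that the authors trimmed to 18 bases, within which the 3p arms differed at 9 positions, and no other entry shared the first 18 bases of any of the 3 printed arms. Reads of the 3p arms could therefore be told apart. For miR-221-5p, the member with the largest fold change below, the first 18 bases were not checked against other entries. The trimming removed the last 5 bases of miR-221-3p, the last 3 of miR-222-3p and the last 4 of miR-222-5p, together with any added tail, so the counts do not measure 3′ uridylation itself.

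The hairpins lie on the minus strand of chromosome X in hg38, with 748 bases between them. They are printed from RefSeq, with the arms that have a mature entry in capitals.
MIR222, chrX:45747015-45747124: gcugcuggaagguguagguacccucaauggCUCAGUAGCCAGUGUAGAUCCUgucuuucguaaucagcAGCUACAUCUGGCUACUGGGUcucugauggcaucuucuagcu
MIR221, chrX:45746157-45746266: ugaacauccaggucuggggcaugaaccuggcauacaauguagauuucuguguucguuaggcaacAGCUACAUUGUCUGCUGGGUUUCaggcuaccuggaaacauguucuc
The mature arms spanned 45746180 to 45746202 for miR-221-3p, 45746221 to 45746242 for miR-221-5p, 45747036 to 45747056 for miR-222-3p and 45747073 to 45747094 for miR-222-5p. Both hairpins lie inside the long non-coding RNA gene MIR222HG (45745210 to 45770274, GENCODE release 44) on the same strand, in the intron of the 1 transcript that spans them. The exon of 1 other MIR222HG transcript covers 24 bases of the miR-221 hairpin.

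The 6 libraries held between 4338558 and 7967606 estimated counts. Levels are given as CPM, a count scaled to a library total of 1000000, so a gain of abundant miRNAs lowers the CPM of the rest and a loss raises it. The let-7 miRNAs and miR-98 made up 19.2% to 19.7% of the counts in ΔTUT4/7 and 5.57% to 6.36% in WT. A single miRNA, miR-16-5p, made up 17.5% to 17.8% in ΔTUT4/7 and 23.5% to 27.99% in WT, which acts on the CPM of the rest in the opposite direction and was not taken out of the totals in any setting. Of 13 miRNAs that mark liver, muscle, blood, endothelial, smooth muscle or fibroblast cells, 5 were not in the table, the endothelial miR-126-3p reached 3938 CPM, and the highest value of the 6 others outside miR-126 was 96.3 CPM. Their summed level was 4836 to 5110 CPM in ΔTUT4/7 and 3773 to 4824 CPM in WT, nearly all of it miR-126. The strains overlapped for miR-126-5p, at 965 to 1128 CPM in ΔTUT4/7 and 893 to 1089 CPM in WT. Neither miR-126 arm passed the edgeR test described below (adjusted p = 0.0917 for miR-126-3p and 0.560 for miR-126-5p). Other markers were lower in ΔTUT4/7 without overlap, as the strains did not overlap for 58.4% of all 826 tested miRNAs. miR-142-3p of blood cells had 30.9 to 36.3 CPM in ΔTUT4/7 and 49.5 to 96.3 CPM in WT. For miR-143-3p of smooth muscle and fibroblasts the ranges were 0.853 to 2.76 and 11.04 to 13.14 CPM. The low miR-142-5p and miR-122-5p, under 6 CPM in every library, were also lower in all ΔTUT4/7 libraries, and for miR-451a and miR-150-5p the strains overlapped. Their part in the results was not tested. No miRNA is specific to HEK 293T, so the identity of the cells was not tested with these data.

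The cluster was among the most abundant products of these cells, and nearly all of it was 1 arm. The 4 arms together took 4.13%, 4.02% and 3.90% of the counts in ΔTUT4/7 replicates 1, 2 and 3, and 4.25%, 3.43% and 3.04% in WT replicates 1, 2 and 3. The strains overlapped, with WT replicate 1 above and WT replicates 2 and 3 below every ΔTUT4/7 library. The summed level was 40180 ± 1151 CPM in ΔTUT4/7 and 35748 ± 6191 CPM in WT (SD, n = 3 each), a difference of 4432 CPM (2-sided exact permutation test, p = 0.4, where 0.1 is the smallest that 3 against 3 libraries allow). On library totals without the let-7 and miR-98 counts (called totals without let-7) the difference was 11875 CPM. On those totals the strains did not overlap, with 4.83% to 5.14% in ΔTUT4/7 and 3.25% to 4.50% in WT. Whether the strains overlap in summed level thus depends on the totals used. miR-221-3p alone made up 91.8% to 93.0% of the cluster in every library.

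The order of the 4 arms was the same in both strains. miR-221-3p came first, then miR-222-3p, miR-221-5p next and miR-222-5p last. No step of this order overlapped: in both strains, every library of the higher arm lay above every library of the next. The narrowest step was that of the 5p arms in WT, where the lowest miR-221-5p value was 467 CPM and the highest miR-222-5p value 427 CPM. Ligation and amplification can favour some sequences over others, so the order is one of sequenced counts.

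hsa-miR-221-3p, the main guide of the cluster, had 38220, 37221 and 35817 CPM in ΔTUT4/7 replicates 1, 2 and 3. In WT replicates 1, 2 and 3 it had 39465, 31905 and 27904 CPM. It ranked 4 to 7 among the 1000 miRNAs of each library. The 3 ΔTUT4/7 values lay close together and inside the WT range, which was the wider of the ranges. The log2 fold change of ΔTUT4/7 over WT was 0.16 (standard error 0.13, 95% interval -0.11 to 0.44, edgeR quasi-likelihood adjusted p = 0.305 over 826 tested miRNAs, Benjamini-Hochberg). On the linear scale the interval runs from 0.925-fold to 1.36-fold. Without WT replicate 1, the highest WT library, the log2 fold change was 0.31 and passed (edgeR adjusted p = 0.0317), and on totals without let-7 it was 0.39 and passed (edgeR adjusted p = 0.0246).

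hsa-miR-222-3p, the sister guide with the same seed, had 1644, 1722 and 1813 CPM in ΔTUT4/7 replicates 1, 2 and 3. In WT replicates 1, 2 and 3 it had 1897, 1472 and 1690 CPM. The ΔTUT4/7 values again lay within the WT range. Its log2 fold change was 0.03 (standard error 0.14, 95% interval -0.26 to 0.33, edgeR adjusted p = 0.856), and its sign differed between the settings tried. As a fold change the interval is 0.833 to 1.26.

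hsa-miR-221-5p, the passenger arm of miR-221, was the member that rose. It had 1097, 1003 and 1039 CPM in ΔTUT4/7 replicates 1, 2 and 3, and 742, 603 and 467 CPM in WT replicates 1, 2 and 3. All 3 ΔTUT4/7 libraries lay above all 3 WT libraries, with a gap between 742 and 1003 CPM. The means were 1046 ± 47.0 and 604 ± 137 CPM (SD, n = 3 each). On the log2 scale the fold change was 0.79 (standard error 0.17, 95% interval 0.42 to 1.17, edgeR adjusted p = 0.00281), or 1.73-fold. In each of the 14 alternative settings it passed with an increase, and the log2 fold change ranged from 0.64 without WT replicate 3 to 1.02 on totals without let-7.

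hsa-miR-222-5p, the passenger arm of miR-222 and the rarest member, had 351, 270 and 343 CPM in ΔTUT4/7 replicates 1, 2 and 3. In WT replicates 1, 2 and 3 it had 427, 330 and 340 CPM. The strains overlapped, with ΔTUT4/7 replicate 2 the lowest and WT replicate 1 the highest library. The log2 fold change was -0.19 (standard error 0.17, 95% interval -0.55 to 0.18, edgeR adjusted p = 0.393). On totals without let-7 it was 0.04.

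**Figure D1:**
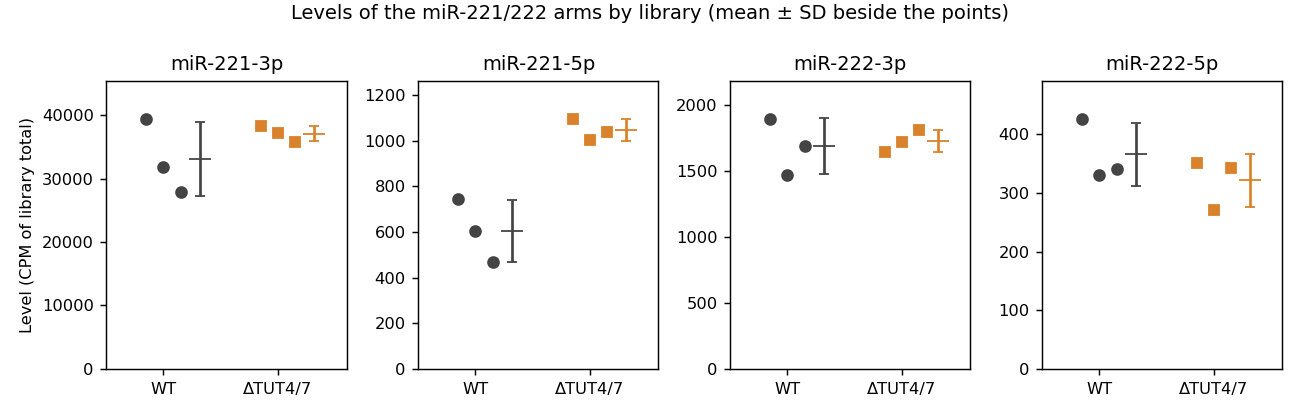
Level in CPM (vertical axes from 0, each with its own scale) of the 4 arms in the 3 WT libraries (circles) and the 3 ΔTUT4/7 libraries (squares), in replicate order, with the mean and SD beside them. miR-221-5p is the arm whose strains do not overlap, 1003 to 1097 CPM against 467 to 742 CPM.

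Thus 1 of the 4 members passed the test with an increase (2 without WT replicate 1) and 0 with a decrease, while 45.2% of all 826 tested miRNAs passed, 23.2% with an increase and 21.9% with a decrease. By edgeR at an unadjusted p under 0.05 the number of members lower was also 0, and by DESeq2 and limma it was 0 at the adjusted threshold. None of the 4 changed by at least 2-fold in this fit, against 30.0% of all tested miRNAs that passed with such a change. The strains did not overlap for 1 of the 4 members, against 58.4% of all tested miRNAs, and for 28.8% of all the ΔTUT4/7 libraries were the higher ones. The median size of the log2 fold change was 0.17 over the 4 members and 0.77 over all tested miRNAs. All 4 members were abundant, and over the 190 miRNAs with a mean of at least 100 CPM the median size was 0.52, with 44 higher and 58 lower. On totals without let-7, 65.5% of the miRNAs that passed were higher, in place of 51.5%, and the median over all tested miRNAs of the log2 fold change moved from 0.013 to 0.23. A change of totals shifts all miRNAs alike, so the distance of a member from that median is the same by construction, 0.15 for miR-221-3p and 0.78 for miR-221-5p.

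**Figure D2:**
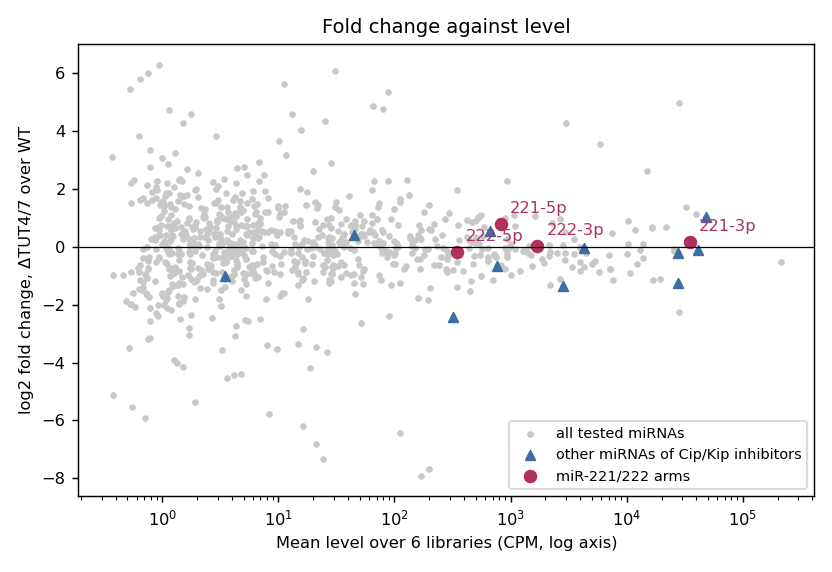
Log2 fold change of ΔTUT4/7 over WT (vertical axis) against mean CPM over the 6 libraries (horizontal log axis) for the 826 tested miRNAs, with the 4 arms of the cluster as labelled circles and 11 other miRNAs that target Cip/Kip inhibitors as triangles. The 3p arms of the cluster lie near 0, at 0.16 and 0.03, and miR-221-5p lies above them at 0.79.

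The WT libraries spread more than the ΔTUT4/7 libraries for 3 of the 4 arms. The highest WT library exceeded the lowest 1.41-fold for miR-221-3p, 1.59-fold for miR-221-5p, 1.29-fold for miR-222-3p and 1.29-fold for miR-222-5p. The same quotient among the ΔTUT4/7 libraries was 1.07, 1.09, 1.10 and 1.30. WT replicate 1 was the highest WT library for all 4 arms. Over the 190 miRNAs with a mean above 100 CPM the median quotient was 1.30 in WT and 1.12 in ΔTUT4/7. Counting error was at most 2.77% of any member's value, below each of these spreads.

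A ratio of counts within a library does not depend on how libraries are scaled. The ratio of 3p to 5p counts separated the strains for miR-221, while for miR-222 the strains overlapped. The shifts of the 2 hairpins were not tested against each other. The miR-221 hairpin gave 34.9, 37.1 and 34.5 counts of its 3p arm for each count of its 5p arm in ΔTUT4/7 replicates 1, 2 and 3. In WT replicates 1, 2 and 3 the ratio was 53.2, 52.9 and 59.7. The WT libraries, which differed 1.41-fold in the level of miR-221-3p, lay close together in this ratio and apart from all ΔTUT4/7 libraries. The mean log2 ratio was 5.15 ± 0.06 in ΔTUT4/7 and 5.79 ± 0.10 in WT (SD, n = 3 each), a difference of -0.64 (2-sided exact permutation test, p = 0.1, the smallest that 3 against 3 allow). The 5p arm was 2.63% to 2.82% of the counts of the hairpin in ΔTUT4/7 and 1.65% to 1.86% in WT. Leaving out any 1 library kept the difference between -0.67 and -0.58.

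The miR-222 hairpin gave 4.68, 6.38 and 5.28 counts of its 3p arm for each count of its 5p arm in ΔTUT4/7 replicates 1, 2 and 3, and 4.44, 4.46 and 4.97 in WT replicates 1, 2 and 3. The strains overlapped, and ΔTUT4/7 replicate 2 stood highest. The difference in the mean log2 ratio was 0.23, of the opposite sign to that of miR-221 (2-sided exact permutation test, p = 0.2). With single libraries left out it ranged from 0.11 without ΔTUT4/7 replicate 2 to 0.33 without ΔTUT4/7 replicate 1. The passenger of miR-222 was the less rare one, with 13.6% to 18.4% of the counts of its hairpin over the 6 libraries.

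The arm ratios were also tested over the 200 hairpins whose 3p and 5p arms were both tested under matching names, with limma-trend on the log2 ratio of counts with 0.5 added, a test chosen after the values were seen. For miR-221 the difference was -0.64 (standard error 0.18, 95% interval -1.05 to -0.23, limma adjusted p = 0.0416 over the 200 hairpins). For miR-222 it was 0.23 (standard error 0.19, 95% interval -0.20 to 0.65, limma adjusted p = 0.463). Over the 200 hairpins, 31 (15.5%) passed, 19 with a lower and 12 with a higher 3p to 5p ratio in ΔTUT4/7. How many of them shifted toward their rarer arm, as miR-221 did, was not counted. In 34.0% of the 200 the strains did not overlap. The call of miR-221 was lost without WT replicate 2, where the difference was -0.67 (limma adjusted p = 0.133). It was also lost without ΔTUT4/7 replicate 1, 2 or 3, where the difference was -0.62, -0.67 and -0.62 (limma adjusted p = 0.115, 0.139 and 0.129). A shift of this size was common: 84 of the 200 hairpins had a larger one in either direction, as had 12 of the 39 whose rarer arm exceeded 100 CPM.

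**Figure D3:**
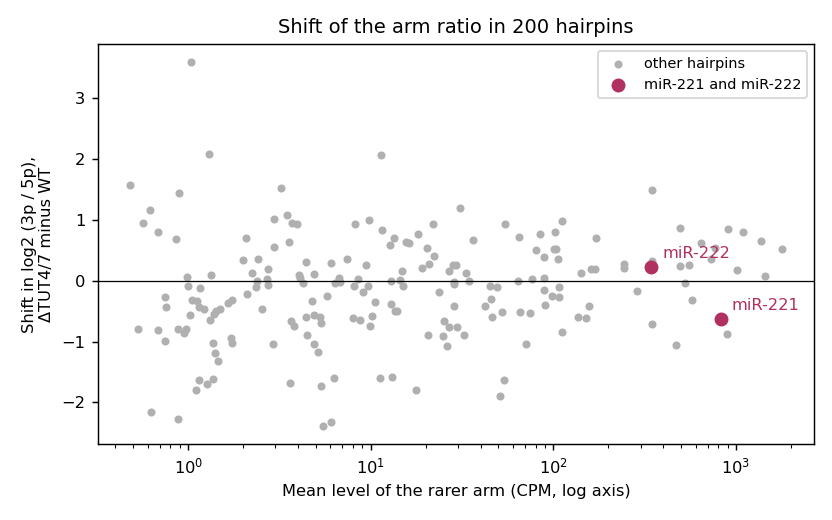
Shift of the log2 ratio of the 3p to the 5p arm, ΔTUT4/7 minus WT (vertical axis), against the mean CPM of the rarer arm (horizontal log axis) for 200 hairpins, with miR-221 and miR-222 labelled. miR-221 lies at -0.64 and miR-222 at 0.23, both within the range of the other hairpins.

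Between the hairpins, the guides kept their proportion within the spread of the libraries and the passengers did not. There were 23.2, 21.6 and 19.8 counts of miR-221-3p for each count of miR-222-3p in ΔTUT4/7 replicates 1, 2 and 3, and 20.8, 21.7 and 16.5 in WT replicates 1, 2 and 3. These ranges overlapped, with WT replicate 3 the lowest library, and the difference in the mean log2 ratio was 0.14 (2-sided exact permutation test, p = 0.5). With single libraries left out it ranged from 0.017 without WT replicate 3 to 0.21 without WT replicate 2, and it was 0.08 without ΔTUT4/7 replicate 1. For the 5p arms there were 3.12, 3.72 and 3.02 counts of miR-221-5p for each count of miR-222-5p in ΔTUT4/7 replicates 1, 2 and 3, and 1.74, 1.83 and 1.37 in WT replicates 1, 2 and 3. All 3 ΔTUT4/7 ratios lay above all 3 WT ratios, by 1.00 in the mean log2 ratio, or 2.00-fold (2-sided exact permutation test, p = 0.1, the smallest possible). Leaving out any 1 library kept that difference between 0.88 and 1.08. It joins the increase of miR-221-5p (log2 fold change 0.79) to the -0.19 of miR-222-5p, which did not pass. How often such a ratio separates the strains in other pairs of hairpins was not counted.

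**Figure D4:**
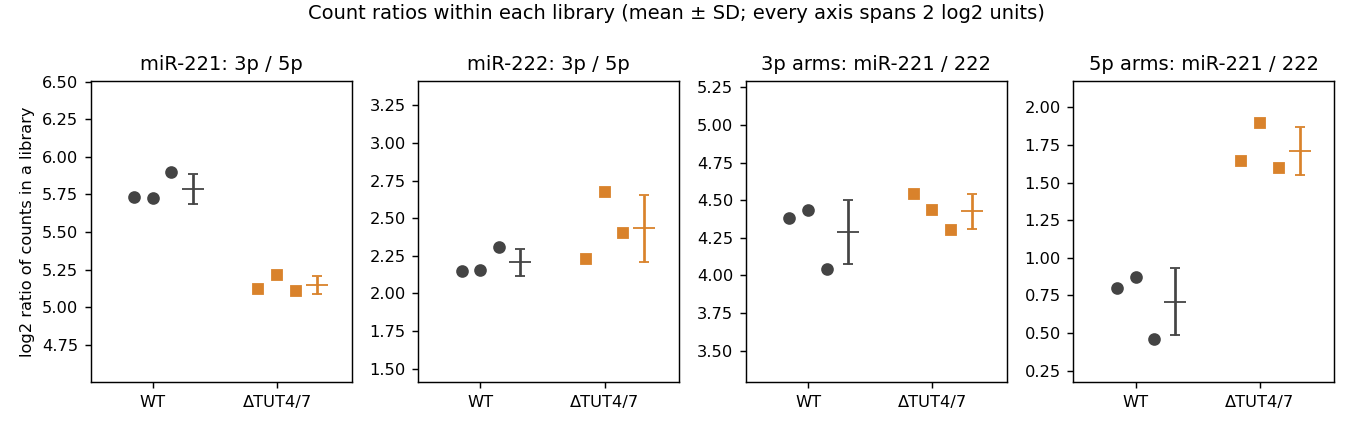
Log2 ratio of counts within each library for the 3p to the 5p arm of each hairpin and for miR-221 to miR-222 within each arm, in WT (circles) and ΔTUT4/7 (squares), with mean and SD (n = 3 each) and axes of equal length that do not start at 0. The strains separate in the first and the last panel, by -0.64 and 1.00, and overlap in the other two.

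**Figure D5:**
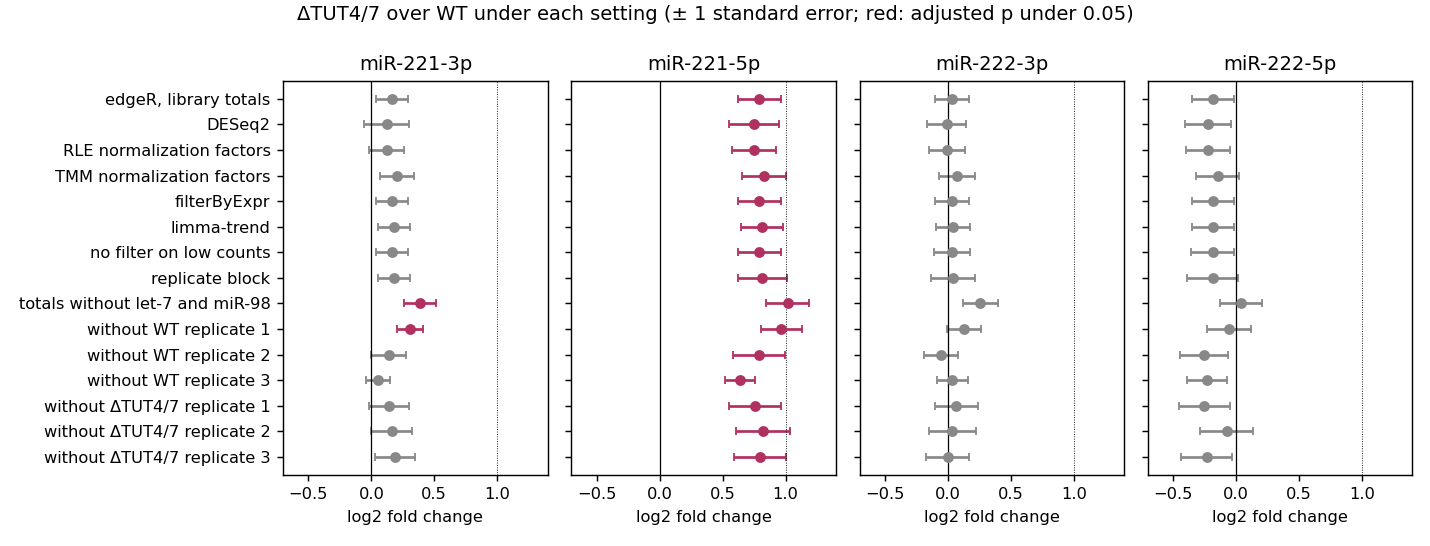
Log2 fold change of ΔTUT4/7 over WT with 1 standard error (horizontal axis) for the 4 arms under library totals and 14 other settings (rows), in red where the adjusted p is under 0.05, with the dotted line at a 2-fold change. miR-221-5p passes in each setting, and miR-221-3p in 2 of them. miR-222-3p and miR-222-5p pass in none.

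The cluster was set beside 12 other miRNAs known to repress the Cip/Kip family of cell cycle inhibitors (p21, p27 and p57). Of these, 11 were tested, 1 was higher, 4 were lower and 6 did not pass, with a median log2 fold change of -0.21 against 0.013 for all 826. The 5 that passed are a share close to the 45.2% of all tested miRNAs, 23.2% higher and 21.9% lower. Most of the 11 had a mean above 100 CPM. Over the 190 miRNAs with a mean of at least 100 CPM the median was -0.087, with 44 higher and 58 lower. The count of higher miRNAs in the Cip/Kip list was 2 without WT replicate 1 and 3 without WT replicate 3. The other member, miR-20b-5p, was too rare to be tested. The most abundant over the 6 libraries, miR-20a-5p of the p21 (CDKN1A) group, was also the one that rose, at 65523 ± 2207 CPM in ΔTUT4/7 and 31862 ± 4398 CPM in WT (SD, n = 3 each; log2 fold change 1.04, edgeR adjusted p = 1.7e-05). In WT alone the means of miR-93-5p, at 42708 ± 5342 CPM, and miR-148a-3p, at 38752 ± 18356 CPM (SD, n = 3 each), stood above that of miR-20a-5p. The spread of miR-148a-3p was wide, so its place is uncertain. The largest decrease was that of miR-152-3p, one of the p27 group, with 99.9 ± 9.59 CPM in ΔTUT4/7 and 537 ± 91.1 CPM in WT (SD, n = 3 each; log2 fold change -2.43, edgeR adjusted p = 5.46e-07). The summed level of the 12 was 151446 to 156485 CPM in ΔTUT4/7 and 145805 to 168041 CPM in WT, ranges that overlap. Levels of the inhibitors themselves were not analysed here.

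On chromosome X, 78 other arms with no annotated hairpin on another chromosome were listed, 9 of them without a RefSeq entry to check this, and 69 were tested. Of these, 20 were higher, 20 were lower and 29 did not pass, with a median log2 fold change of -0.04. Of all 826 tested miRNAs, 23.2% were higher and 21.9% lower, with a median of 0.013. The nearest tested neighbours were far from the cluster. On the side of higher coordinates they were miR-532-5p and miR-532-3p, 4256072 and 4256109 bases away, with log2 fold changes of -0.28 and -0.43 (edgeR adjusted p = 0.106 and 0.0818). On the other side it was miR-6134, which starts at 28495575, with a log2 fold change of 1.34 (edgeR adjusted p = 0.0145) on 3.15 ± 0.381 CPM in ΔTUT4/7 and 1.19 ± 0.296 CPM in WT (SD, n = 3 each). The largest log2 fold change among the 69 was 6.06 for miR-504-5p, with 60.2 ± 5.75 CPM in ΔTUT4/7 and 0.801 ± 0.525 CPM in WT. The smallest was -4.39 for miR-767-5p, with 0.418 ± 0.549 CPM in ΔTUT4/7 and 9.02 ± 1.91 CPM in WT (SD, n = 3 each). Each of these rests on a strain with very few counts.

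Profiles across the 6 libraries were compared by the root mean square distance of centred log2(CPM + 1) values, among 186 other miRNAs with a mean of at least 100 CPM. The nearest to miR-221-3p were miR-93-3p at 0.090, miR-628-5p at 0.098 and miR-362-5p at 0.101. Nearest to miR-222-3p were miR-22-3p at 0.056, miR-362-5p at 0.089 and miR-132-3p at 0.092. None of these 5 neighbours passed the test, with edgeR adjusted p from 0.187 to 0.858. They were chosen for profiles like those of arms that did not pass, so this followed largely from the choice. The 3p arms lay 0.156 apart from each other, and miRNAs outside the cluster lay nearer to each. By this distance miR-222-3p ranked 14 from miR-221-3p, and miR-221-3p ranked 20 from miR-222-3p. miR-221-5p lay farther from its own 3p arm, at 0.325, than miR-222-5p did from miR-222-3p, at 0.179. The distances share the 6 libraries and their totals and are given as a description.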

How the data were processed

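Small RNA libraries (QIAseq miRNA Library Kit) of 3 ΔTUT4/7 and 3 WT cultures were processed by the authors in Partek Flow 10.0.22. Per the labels and methods, the authors kept 18 nt of each read, used Bowtie 1.0.0 with hg38 and assigned reads to miRBase 22. The deposited values are estimated counts, which the authors obtained by expectation-maximization and wrote as whole numbers, and those over 1000000 are rounded. A deposited list of the authors' own p-values, fold changes and strain means was not used. Whether molecular identifiers were collapsed is not stated in the paper or the labels.

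Groups came from the sample titles. CPM are counts scaled to a total of 1000000. All miRNAs whose largest count exceeded 7 entered edgeR 4.0.16 (estimateDisp, glmQLFit, glmQLFTest; R 4.3.3) on library totals with normalization factors of 1 and Benjamini-Hochberg adjustment; a pass is an adjusted p under 0.05. Standard errors are the size of the log2 fold change over the square root of F. Ratios were tested with exact permutation tests (scipy 1.17.1). Alternatives used DESeq2 1.42.0, limma 3.58.1 on log2(CPM + 1), other scalings and filters, a replicate block and libraries left out. Members and lists were chosen with earlier results of these data known. Named are the members, list members with the largest, smallest or most abundant values, the nearest neighbours on the chromosome and the nearest profiles. That the replicates came from separate cultures rests on the label biological replicate.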

Additional observations from a re-analysis of the deposited data

How the results depend on the processing

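Of 14 alternative fits, each kept the increase of miR-221-5p, with edgeR, DESeq2 or limma adjusted p from 5.12e-04 to 0.0149. The miR-221-3p log2 fold change of 0.16 passed at 0.39 on totals without let-7 and miR-98 (called without let-7), and ranged from 0.056 to 0.31 with single libraries left out. That of miR-222-3p, 0.03, changed sign under DESeq2 (-0.0074) and with RLE factors (-0.0075), and ranged from -0.055 to 0.13 with libraries left out, negative at -0.055 without WT replicate 2 and at -0.0026 without ΔTUT4/7 replicate 3. That of miR-222-5p, -0.19, was 0.039 on totals without let-7 and -0.25 to -0.06 with libraries left out. The number of members that passed with an increase was 1, 2 with those totals, 1 to 2 with libraries left out (2 without WT replicate 1) and 0 when a 2-fold change was also required. In the Cip/Kip list it was 1, and 2 with TMM factors, 3 on totals without let-7 and 1 to 3 with libraries left out (2 without WT replicate 1 and 3 without WT replicate 3). The summed level differed by 4432 CPM, by 11875 CPM on totals without let-7, and by 1759 to 7824 CPM with libraries left out. The cause of these differences was not tested. With the replicate number as a block, 2 of the Cip/Kip list passed with an increase, the members' calls were as without it, and miR-221-5p had a log2 fold change of 0.82. Over 391 miRNAs, deviations of samples with the same number correlated at -0.17, -0.16 and -0.25. Those of samples with different numbers correlated at -0.10 to 0.19. So few pairs cannot tell whether samples with the same number shared a batch. With 3 libraries a strain, the exact tests of the ratios cannot go below p = 0.1.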
